A study of Mus musculus with 18 samples.

Results

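Tiam1, Nup133, Cep295, Trim43b, Tbx1 and Glb1l2 are 6 mouse genes whose bead array signal differed between treated and untreated arrays under 1 of the 3 mouse labels in the study. They were chosen on that contrast, among 19057 genes with a probe named on the array, and all 11 probes annotated to them are described here, each apart. A probe was tested if some group detected it on each of its 3 arrays, at a detection p under 0.05. On this measure 8 of the 11 probes passed, at least 1 for each gene, together with 21193 probes in all. Because a probe could pass through the group in which it was high, the 8 are not a fair sample of the 11.

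The study asked which transcripts differ with U73122, a small molecule widely used to inhibit phospholipase C, in cells sorted by a surface marker from colon tumours. By their labels, the 6 groups are cells of mouse 1 treated with U73122 and untreated (FAK1 T and FAK1 C), cells of mouse 5 treated and untreated (FAK5 T and FAK5 C), and cells of mouse 7 treated and untreated (FAK7 T and FAK7 C), with 3 arrays each. Treatment was 1 µM for 24 h. All 3 mice were C57Bl/6, 17 weeks old, and carried Fapbl-Cre, the floxed Apc allele written Apc2lox14/+ and tet-KrasLSL-G12D/+, and all cells were kept with doxycycline, so the untreated arrays share these alleles and this agent. Each label names 1 animal, the sort used magnetic beads, and the labels leave unsaid whether the replicates were separate cultures. The p-values therefore describe the spread among the arrays at hand, and by the labels this spread may be technical.

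The arrays go against the tissue label. Epcam, an adhesion molecule of epithelia, was detected on 0 of 18 arrays. Of 12 colon epithelium markers, Epcam among them, 4 were detected on all FAK7 arrays, 3 on all FAK1 arrays and 2 on all FAK5 arrays. On FAK5 arrays 11 of 11 skeletal muscle markers on the array, such as Acta1, Ckm and Myh4, were detected on all 6 arrays, against 4 of 11 on all FAK1 arrays and 2 of 11 on all FAK7 arrays. Brown fat markers were detected on all 6 FAK1 arrays for 8 of 10 genes, and liver markers on all 6 FAK7 arrays for 9 of 10. Arrays of 1 label correlated across probes at 0.962 to 0.993 and arrays of different labels at 0.576 to 0.876. Xist, the RNA that coats an inactive X chromosome, was carried by every treated FAK1 and FAK5 array and by untreated replicate 2 of each label, and the other 2 untreated arrays of each label carried the Y-linked Eif2s3y. All 6 FAK7 arrays carried Eif2s3y. Arrays of both kinds under labels 1 and 5 go against those labels naming 1 animal each.

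The genes have unlike roles. Tiam1 is an exchange factor that loads the small GTPase Rac with GTP, and Rac in turn drives actin remodelling at the cell edge. Nup133 is a scaffold protein of the nuclear pore, in the Y-shaped subcomplex, and Cep295 is a centriole protein needed for the maturation of new centrioles. Trim43b belongs to a family of RING-finger TRIM proteins, Tbx1 is a T-box transcription factor of the embryonic pharynx and of head muscle progenitors, and Glb1l2 is a homologue of lysosomal beta-galactosidase. In RefSeq annotation of GRCm38.p6 they lie on 3 chromosomes: Tiam1 at chr16:89787111-90145600, Tbx1 at chr16:18580979-18590671, Nup133 at chr8:123897114-123949265, Cep295 at chr9:15316914-15357849, Glb1l2 at chr9:26763044-26806473 and Trim43b at chr9:89084624-89092835.

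The sequences just upstream of annotated starts are shown for Tiam1 and Nup133, the pair of these genes with the highest correlation over the 18 arrays, and for Tbx1, which differed most downwards. Each is 250 bases of GRCm38.p6 from RefSeq, on the minus strand, and capitals mark CANNTG, the E-box bound by basic helix-loop-helix factors, which reads the same on both strands.
Tiam1, upstream start, chr16:89974700-89974949: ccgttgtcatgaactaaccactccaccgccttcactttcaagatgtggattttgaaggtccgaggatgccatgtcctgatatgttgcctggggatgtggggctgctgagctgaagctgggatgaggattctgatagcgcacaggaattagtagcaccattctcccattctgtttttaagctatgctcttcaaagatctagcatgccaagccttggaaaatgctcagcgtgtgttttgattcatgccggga
Tiam1, downstream start, chr16:89818353-89818602: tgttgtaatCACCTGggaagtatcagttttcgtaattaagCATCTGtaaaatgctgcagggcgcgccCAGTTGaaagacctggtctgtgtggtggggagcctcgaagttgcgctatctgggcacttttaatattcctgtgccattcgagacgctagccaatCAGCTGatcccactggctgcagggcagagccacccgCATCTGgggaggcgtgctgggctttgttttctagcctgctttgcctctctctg
Nup133, chr8:123949266-123949515: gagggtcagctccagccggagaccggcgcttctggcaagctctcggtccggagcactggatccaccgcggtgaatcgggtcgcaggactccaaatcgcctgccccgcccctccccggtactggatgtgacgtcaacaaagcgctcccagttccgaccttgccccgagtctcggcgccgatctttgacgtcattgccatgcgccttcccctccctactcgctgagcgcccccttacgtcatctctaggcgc
Tbx1, outermost start, chr16:18590672-18590921: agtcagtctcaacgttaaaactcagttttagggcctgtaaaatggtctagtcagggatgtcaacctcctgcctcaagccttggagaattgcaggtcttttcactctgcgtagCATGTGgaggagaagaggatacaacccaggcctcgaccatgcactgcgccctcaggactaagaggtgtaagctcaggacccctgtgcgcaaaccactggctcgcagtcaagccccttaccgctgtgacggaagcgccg
CANNTG was present 0 times in the first Tiam1 window, 5 times in the downstream one, 0 times in the Nup133 window and 1 time in the Tbx1 window shown. It was found in 66.2% of 32851 windows of this length, with a median of 1 per window, so its presence or absence is common. The G+C content was 48.4% and 53.2% in the Tiam1 windows, 65.2% in the Nup133 window and 54.4% in the Tbx1 window shown, against a median of 52.4% over all windows. The Nup133 window held 25 CpG dinucleotides, against 6 and 9 in the Tiam1 windows. A second Tbx1 window, at chr16:18588900-18589149 and not printed, had 67.2% G+C, 17 CpG dinucleotides and 0 matches to CANNTG. The Cep295 window, also not printed, held 27 CpG dinucleotides and 3 matches to CANNTG. The T-box motif GGTGTGA, searched on both strands, was in 0 of the 6 windows given for these genes and in 3.33% of all windows. A match or its absence describes the letters only.

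Tiam1 had its highest levels on treated FAK5 arrays. Its normalized log2 signals were 9.00, 9.13 and 9.55 on the FAK5 T arrays, against 6.80, 6.42 and 6.36 on the FAK5 C arrays. The groups do not overlap, and the deposited linear intensities behind them were 380.4, 604 and 757 (T), against 84.2, 75.4 and 54.6 (C). The fitted difference, treated minus untreated, was 2.70 ± 0.22 on the log2 scale (SE), a ratio of 6.49 between means of 9.23 ± 0.29 and 6.53 ± 0.24 (SD, n = 3 each). This contrast chose the genes, so it is described without a test.

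On FAK1 arrays Tiam1 had signals of 7.84, 7.87 and 7.22 (T), against 6.96, 7.70 and 7.58 (C). The groups overlap, and the difference of 0.23 ± 0.22 did not pass (SE; 95% interval -0.23 to 0.69; limma adjusted p = 0.782). On FAK7 arrays the signals were 5.46, 5.26 and 5.17 (T), against 5.44, 5.59 and 5.53 (C), with a difference of -0.23 ± 0.22 (95% interval -0.68 to 0.23; limma adjusted p = 0.848). Neither interval reaches the difference seen on FAK5 arrays, but that value chose the gene and may be too large for this reason. A difference between labels in the response was therefore not tested. From high to low the group means ran FAK5 T, FAK1 T, FAK1 C, FAK5 C, FAK7 C and FAK7 T, and the 2 FAK1 groups and the 2 FAK7 groups were not separated beyond their spread.

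**Figure D1:**
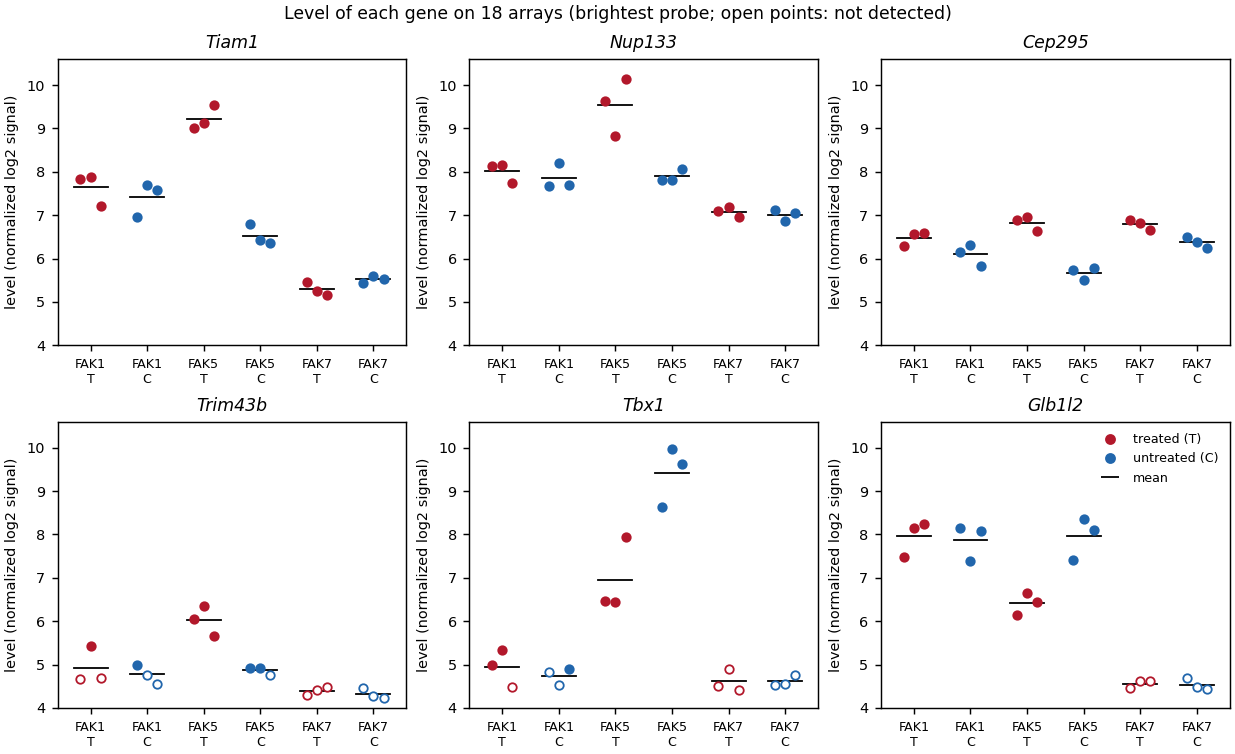
Normalized log2 signal (vertical axis) of each gene on every array, for the brightest probe, in treated (red) and untreated (blue) groups of 3, with lines at group means and open points for arrays where the probe was not detected. Tiam1, Nup133, Cep295 and Trim43b lie higher, and Tbx1 and Glb1l2 lower, on FAK5 T than on FAK5 C arrays, while FAK1 and FAK7 groups lie close together.

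Nup133 is covered by 4 probes, of which 3 passed. The probe ILMN_2654013 had 9.63, 8.83 and 10.13 on FAK5 T arrays, against 7.82, 7.82 and 8.07 on FAK5 C arrays, and the groups do not overlap. Its difference was 1.63 ± 0.24. A second bright probe, ILMN_2981689, had 9.55, 8.91 and 9.95 (T), against 7.68, 7.97 and 7.81 (C), a difference of 1.65 ± 0.24. The pair correlated at 0.988 over the 18 arrays, which share their hybridizations, and in both the second FAK5 T array was the lowest of the 3.

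The third Nup133 probe, ILMN_2719266, was dim: 6.29, 5.67 and 6.29 on FAK5 T arrays, against 4.56, 5.13 and 4.67 on FAK5 C arrays, where it was detected on 1 of 3. It passed the filter through the FAK5 T group alone, so it had to be high there, and its difference of 1.30 ± 0.22 is set against a group near background and adds no support to the bright pair. The fourth, ILMN_2555335, was detected on 0 of 18 arrays and did not pass. On FAK1 arrays the brightest probe had 8.14, 8.15 and 7.74 (T), against 7.68, 8.20 and 7.70 (C), and on FAK7 arrays 7.09, 7.19 and 6.96 (T), against 7.13, 6.86 and 7.05 (C). Both pairs of groups overlap, with differences of 0.15 ± 0.24 on FAK1 arrays (95% interval -0.35 to 0.66; limma adjusted p = 0.901) and 0.06 ± 0.24 on FAK7 arrays (95% interval -0.44 to 0.57; limma adjusted p = 0.991).

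**Figure D2:**
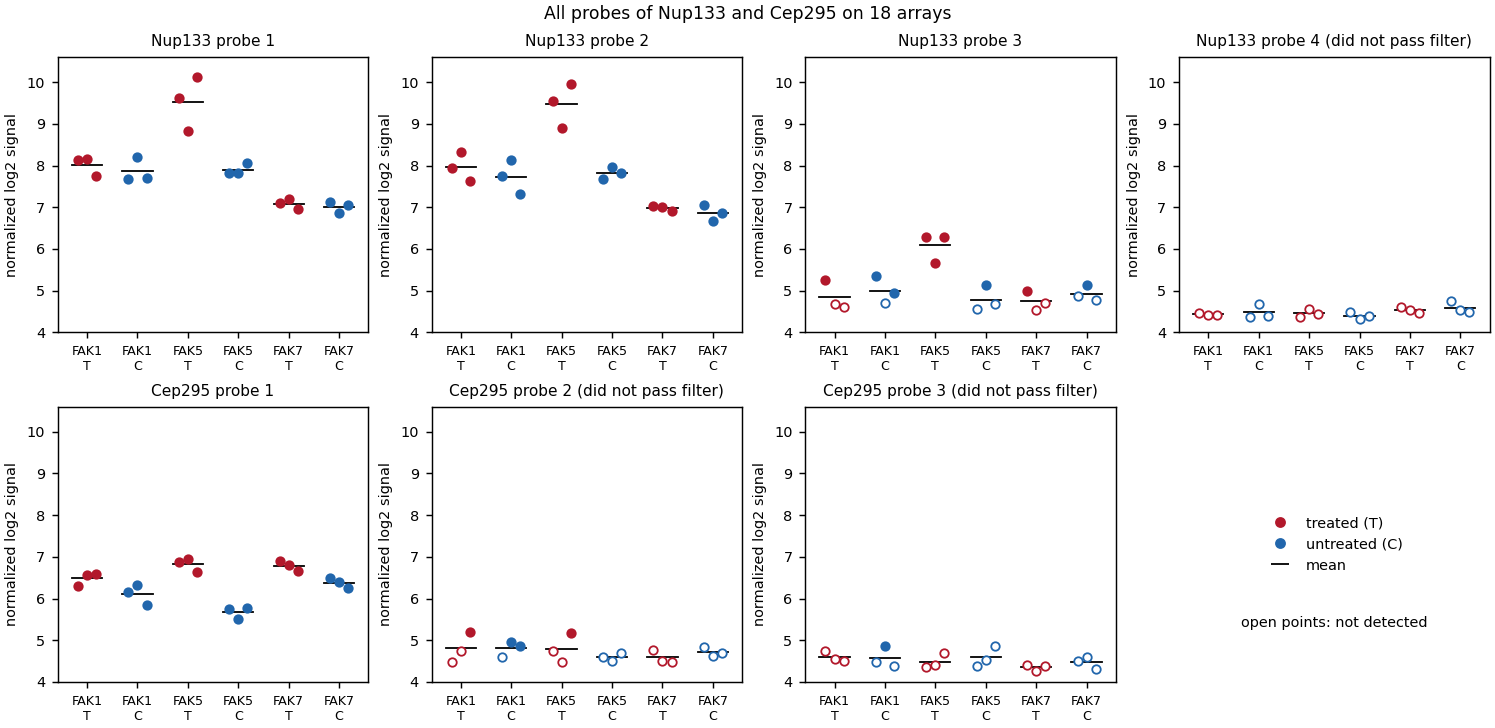
Normalized log2 signal of all 4 Nup133 probes (upper row) and all 3 Cep295 probes (lower row) on the 18 arrays, treated in red and untreated in blue, with open points where a probe was not detected. The 3 Nup133 probes that passed are higher on FAK5 T than on FAK5 C arrays, and the probes that failed the filter stay near background in every group.

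Cep295 rested on 1 of its 3 probes. ILMN_2541675 had 6.88, 6.95 and 6.63 on FAK5 T arrays, against 5.74, 5.50 and 5.78 on FAK5 C arrays, groups that do not overlap, with a difference of 1.15 ± 0.16. On FAK7 arrays it had 6.90, 6.81 and 6.66 (T), against 6.49, 6.39 and 6.25 (C). These groups do not overlap either, which held for 19.2% of all probes tested under that label (9.04% with treated above), and the difference of 0.41 ± 0.16 did not pass (95% interval 0.07 to 0.76; unadjusted p = 0.0218, limma adjusted p = 0.367). On FAK1 arrays the signals were 6.30, 6.56 and 6.59 (T), against 6.16, 6.32 and 5.84 (C), with a difference of 0.38 ± 0.16 that did not pass (95% interval 0.03 to 0.73; limma adjusted p = 0.399). The sign was positive under all 3 labels, but the differences on FAK1 and FAK7 arrays did not pass after adjustment. The probes ILMN_1242512 and ILMN_2704594 were detected on 4 and 1 of 18 arrays.

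Trim43b, measured by ILMN_1219494, was near background outside FAK5 T. It had 6.05, 6.36 and 5.67 on FAK5 T arrays, against 4.92, 4.92 and 4.76 on FAK5 C arrays, where it was detected on 2 of 3, with a difference of 1.16 ± 0.20. It too passed the filter through FAK5 T alone. It was detected on 2 of 6 FAK1 arrays and 0 of 6 FAK7 arrays. On FAK1 arrays the difference was 0.15 ± 0.20 (95% interval -0.26 to 0.57; limma adjusted p = 0.862). Trim43b has close paralogs in mouse, and the probe of Trim43a did not pass, so which paralog gave the signal is uncertain.

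Tbx1 went the other way, and of the 3 labels it was detected on all arrays under label 5. ILMN_1252399 had 6.47, 6.45 and 7.94 on FAK5 T arrays, against 8.63, 9.97 and 9.63 on FAK5 C arrays. The deposited linear intensities were 60.3, 90.1 and 250.6 (T), against 318.7, 943 and 588 (C). The groups do not overlap, although the third treated array lies closer to the lowest untreated array than to the other 2 treated ones. The difference was -2.46 ± 0.36, a signal 5.49-fold lower in treated cells. On FAK1 arrays it was detected on 3 of 6 arrays, at 5.00, 5.34 and 4.49 (T), against 4.83, 4.52 and 4.89 (C), with a difference of 0.19 ± 0.36 (95% interval -0.56 to 0.95; limma adjusted p = 0.920). It was detected on 0 of 6 FAK7 arrays, so no ratio between treated and untreated is given there.

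Glb1l2 was bright under labels 1 and 5. ILMN_2755372 had 6.15, 6.65 and 6.45 on FAK5 T arrays, against 7.42, 8.35 and 8.10 on FAK5 C arrays, groups that do not overlap, with a difference of -1.54 ± 0.25. On FAK1 arrays it had 7.49, 8.14 and 8.23 (T), against 8.16, 7.39 and 8.08 (C), which overlap, with a difference of 0.08 ± 0.25 (95% interval -0.46 to 0.61; limma adjusted p = 0.962). Of the 6 FAK1 arrays, 5 lay within the range of the untreated FAK5 arrays, and FAK1 C replicate 2 lay just below it. It was detected on 0 of 6 FAK7 arrays.

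Treated and untreated groups overlapped for all 8 probes on FAK1 arrays, where 15.1% of all probes did not overlap. Of the 8 probes tested, 0 passed on FAK1 arrays, where 0.670% of all probes passed, and 0 passed on FAK7 arrays, where 0.656% did (limma, adjusted p under 0.05). At these shares 0 of 8 says nothing particular about the genes. Trim43b, Tbx1 and Glb1l2 were detected on 0 of 6 FAK7 arrays, so no decrease could be seen for them there. At an unadjusted p under 0.05 the count was 1 of 8 under each label, the Cep295 probe both times, close to the shares of 11.1% and 10.1% of all probes on FAK1 and FAK7 arrays. The difference with U73122 on FAK1 arrays minus that on FAK7 arrays passed for none of the 8, with limma adjusted p from 0.624 to 0.984. It has the same limit for Trim43b, Tbx1 and Glb1l2. On FAK5 arrays the groups were apart for all 8, against 12.8% of all probes, with treated above for 6 (6.24% of all probes) and below for 2 (6.54%). There 31 of 21193 probes passed (0.146%), 0.0897% of all probes higher and 0.0566% lower in treated cells. These counts are fixed by the choice of genes. With 1 probe per gene, 8 of 11406 genes passed there, the 6 described and the RIKEN clones 1190007I07Rik at -1.89 and 8430426J06Rik at -1.01. Trim43b was the last inside the threshold, with a difference of 1.16, and Cntnap2 (1.13), C4b (-1.24) and S100a13 (0.74) were just outside it. Tested by probe, Cntnap2, C4b and S100a13 were among the 31 that passed, as were Gbf1 (1.45) and Hal (1.34), so the 6 genes are not the only ones. Of the 31 probes that passed on FAK5 arrays, 3 passed on FAK1 arrays and 0 on FAK7 arrays.

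**Figure D3:**
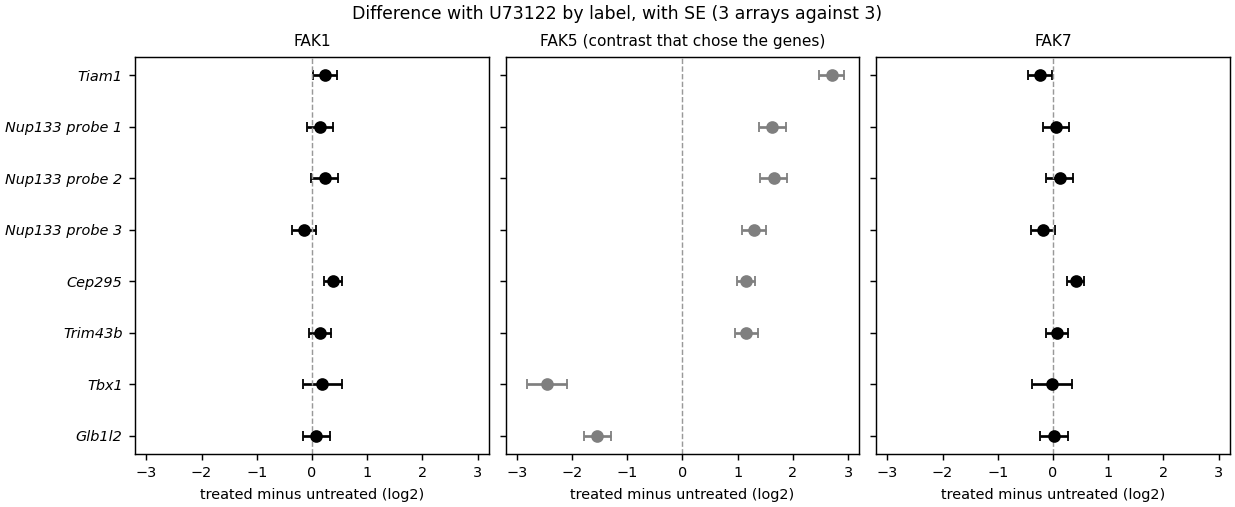
Treated minus untreated difference of the normalized log2 signal (horizontal axis) with its SE, for each of the 8 probes tested, on FAK1, FAK5 and FAK7 arrays (3 against 3 each). On FAK5 arrays, drawn in grey since this contrast chose the genes, values run from -2.46 to 2.70, and on FAK1 and FAK7 arrays they lie between -0.23 and 0.41. The Trim43b, Tbx1 and Glb1l2 probes were detected on 0 of 6 FAK7 arrays.

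The mixed sex chromosome transcripts bear on the FAK5 values, since 2 of the 3 untreated arrays carry Eif2s3y and all treated arrays carry Xist. Against the 1 untreated array with Xist, the treated mean of Tiam1 differed by 2.81, and against the 2 untreated arrays with Eif2s3y by 2.64. The same pair of values was 1.71 and 1.58 for Nup133, 1.32 and 1.06 for Cep295, 1.11 and 1.19 for Trim43b, -3.01 and -2.18 for Tbx1 and -1.94 and -1.34 for Glb1l2. All 6 genes kept their sign against either kind of untreated array, which was fixed in advance, since their treated and untreated FAK5 arrays do not overlap. The part of the sex chromosome state in these differences was not tested.

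The summed linear signal of the skeletal muscle markers was 152000 to 158000 on FAK5 T arrays, against 149000 to 167000 on FAK5 C arrays. Slow fibre genes summed to 25600 to 31400 (T), against 22000 to 32300 (C), and fast fibre genes to 215000 to 224000 (T), against 221000 to 226000 (C). These sums overlap between the groups, but they are carried by probes near the top of the scale, such as Acta1 at a level of 14.32 and Myl1 at 14.60, where the brightest signal of any probe was 14.77 and a change may be compressed. The 14 of 29 muscle and fibre probes with a FAK5 mean under 13, a limit chosen after the values were seen, differed by -0.29 to 0.54 with a median of 0.12. Endothelial markers, 7 of 7 detected on all arrays of both groups, summed to 2350 to 2760 (T), against 2980 to 3650 (C), and the brown fat list, with 5 of 10 genes detected on all arrays, to 29100 to 31900 (T), against 20900 to 28700 (C). Their median differences were -0.37, with 1 of 7 genes positive, and 0.16, with 7 of 9. Fibroblast markers had a larger median of 0.80 with 7 of 7 positive, although their sums of 27800 to 33600 (T), against 14200 to 33100 (C), overlap. Nerve markers had a median of -0.51 with 0 of 4 positive, with sums of 2860 to 11000 (T), against 5200 to 8860 (C), and macrophage markers one of 0.23 with 6 of 7 positive. The part of these 5 lists in the differences of the 6 genes was not tested. In bulk RNA, fewer cells of a type and less RNA per cell cannot be told apart.

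The levels of the genes under the 3 labels, averaged over treated and untreated arrays, form another contrast than the one that chose the genes, but for FAK5 they use the same arrays. Each label has its own tissue profile, so label and tissue cannot be told apart in them. Trim43b, Tbx1 and the dim Nup133 probe passed the filter through FAK5 groups alone, so their FAK5 levels are described without a test. Of the other 5 probes, all 5 passed between FAK5 and FAK7 arrays, where 79.1% of all probes did, with 4 higher on FAK5 arrays (41.0% of all probes) and 1 lower (38.1%). Tiam1 was higher by 2.47 ± 0.15 (SE; limma adjusted p = 3.63e-11), with all 6 FAK5 arrays above all 6 FAK7 arrays, and Nup133 by 1.67 ± 0.17 on ILMN_2654013 (limma adjusted p = 4.2e-08). Untreated means of Tiam1 were 6.53 (FAK5 C) and 5.52 (FAK7 C), against treated means of 9.23 (FAK5 T) and 5.3 (FAK7 T). For Nup133 they were 7.9 and 7.01 untreated, against 9.53 and 7.08 treated. Both p-values thus rest in large part on FAK5 T arrays that also chose the genes. Glb1l2 was at least 4.88-fold higher on FAK5 arrays (limma adjusted p = 1.15e-10). Cep295 was lower on FAK5 arrays by -0.34 ± 0.12 (limma adjusted p = 0.0136). This lay in the untreated arrays, with means of 5.67 (FAK5 C) and 6.38 (FAK7 C), against treated means of 6.82 (FAK5 T) and 6.79 (FAK7 T). As a description, Tbx1 was at least 9.73-fold and Trim43b at least 1.46-fold higher on FAK5 arrays. These bounds are set against the lowest signal among detected probes of each FAK7 array, or the probe's own value where higher, since the probes were not detected under label 7.

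Between FAK5 and FAK1 arrays 3 of these 5 probes passed, against 58.5% of all probes, with 2 higher on FAK5 arrays (26.1% of all probes) and 1 lower (32.4%). The bright Nup133 probes were higher by 0.78 and 0.80 (limma adjusted p = 0.000616 and 0.000529), with overlapping arrays. Their untreated means lay close, at 7.9 (FAK5 C) and 7.86 (FAK1 C) for ILMN_2654013 and at 7.82 and 7.73 for ILMN_2981689. The FAK5 T means were 9.53 and 9.47, so these p-values rest on treated arrays that also chose the genes. Glb1l2 was lower by -0.73 ± 0.18 (limma adjusted p = 0.00178). This too lay in the FAK5 T arrays, with a mean of 6.42, while untreated means were 7.96 (FAK5 C) and 7.88 (FAK1 C). When the untreated arrays with Eif2s3y were left out under labels 1 and 5, Glb1l2 was at -0.29 and Nup133 at 0.57 on ILMN_2654013. This left 1 untreated array under each of the 2 labels, so only the sizes are given. The difference of Tiam1, 0.35 ± 0.15, did not pass (95% interval 0.02 to 0.67; limma adjusted p = 0.0608), and that of Cep295 was -0.05 ± 0.12 (limma adjusted p = 0.750). Both averages combine differences of opposite sign. Tiam1 had treated means of 9.23 (FAK5 T) and 7.64 (FAK1 T), but untreated means of 6.53 (FAK5 C) and 7.41 (FAK1 C). For Cep295 they were 6.82 and 6.49 treated, and 5.67 and 6.11 untreated. Tbx1 lay at 6.45 to 9.97 on FAK5 arrays, against 4.49 to 5.34 on FAK1 arrays, where it was near background and detected on 3 of 6. Trim43b lay at 4.76 to 6.36 on FAK5 arrays, against 4.56 to 5.43 on FAK1 arrays, where it was detected on 2 of 6.

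Between FAK1 and FAK7 arrays, a contrast without FAK5 arrays, 6 of the 8 probes passed, against 74.6% of all probes, with 5 higher on FAK1 arrays (41.7% of all probes) and 1 lower (33.0%). Glb1l2 was at least 8.08-fold higher on FAK1 arrays (limma adjusted p = 4.49e-12). Tiam1 was higher by 2.12 ± 0.15 (limma adjusted p = 4.79e-10), and the bright Nup133 probes were higher by 0.89 and 0.93. Trim43b passed as higher (limma adjusted p = 0.00372), but with detection on 2 of 6 FAK1 and 0 of 6 FAK7 arrays no ratio is given. Cep295 was lower by -0.29 ± 0.12 (limma adjusted p = 0.0329), a call that was lost in 9 alternative settings. The label order thus differs by gene: Tiam1 and the bright Nup133 probes were lowest under label 7, Tbx1 was high under label 5, and Cep295 had its highest mean under label 7.

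No tested neighbour of the 6 genes had a difference as large as its gene on FAK5 arrays. The 6 were chosen on this contrast and the neighbours were not, so a gap between them follows from the choice. Within 1 Mb, 85 neighbouring genes were tested and 0 passed there (limma; 10 of 85 at an unadjusted p under 0.05, against 2422 of 21193 probes). The 8 neighbours of Tiam1 ran from -0.23 to 0.08, with the nearest, Sod1, at -0.16 ± 0.13 (SE), and Scaf4 at -0.02. The 27 of Nup133 ran from -0.53 to 0.45. Abcb10, 3194 bases away, was at 0.13 ± 0.21, and Acta1, skeletal actin, 2339 bases away, at -0.01 ± 1.15 on FAK5 arrays. The same Acta1 probe differed by 4.79 ± 1.15 on FAK1 arrays, where muscle markers spread widely (limma adjusted p = 0.0637).

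Around Cep295, 9 neighbours ran from -0.09 to 0.73, the highest being Smco4. Taf1d overlaps the end of Cep295 in the annotation, and its 2 probes differed by -0.09 and 0.33 on FAK5 arrays. The 11 neighbours of Trim43b ran from -0.48 to 0.74, and the 7 of Glb1l2 from -0.28, for B3gat1 at 1694 bases, to 0.33. Around Tbx1, in the region that matches the human 22q11 deletion, 23 neighbours ran from -0.89 for Prodh to 0.54 for Cdc45, with the nearest, Septin5, at -0.27 ± 0.21.

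**Figure D4:**
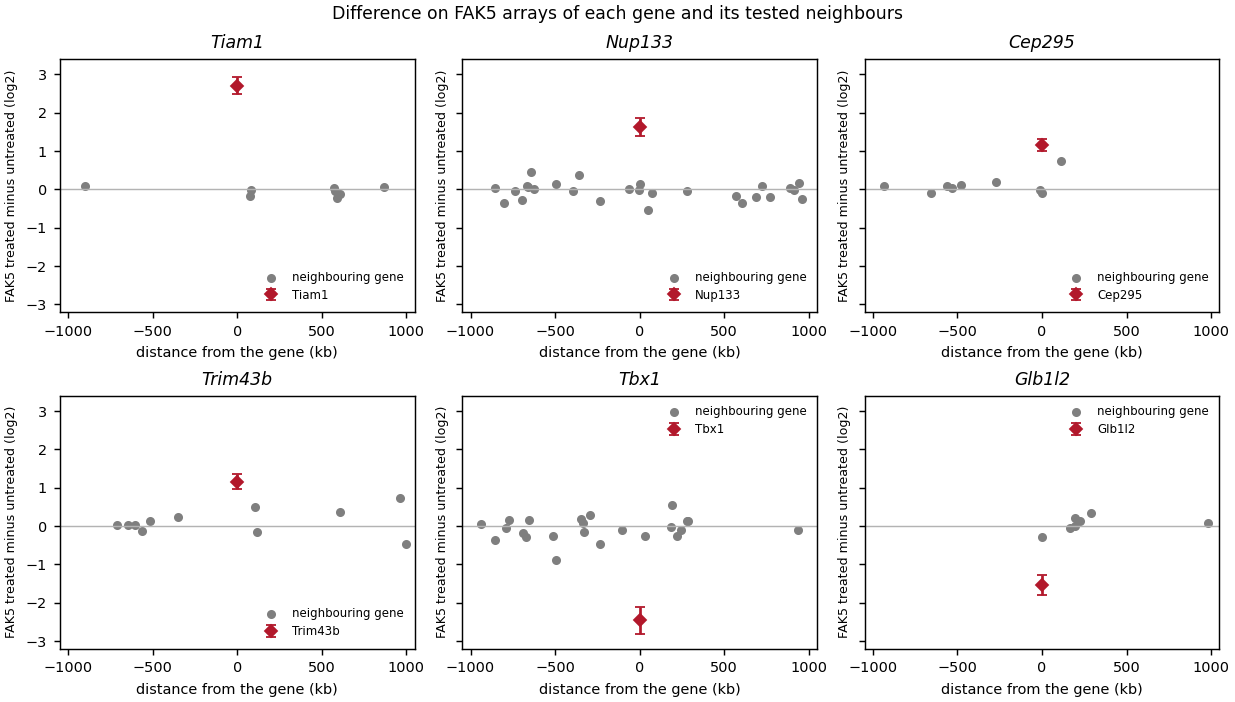
Treated minus untreated difference on FAK5 arrays (vertical axis, log2) of each gene (red diamond with SE) and of the tested genes within 1 Mb of it (grey points), by distance from the gene in kb. The grey points lie between -0.89 and 0.74. The 6 genes lie outside the range of their own neighbours, which follows from their choice on this contrast.

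Other genes of the same pathways are given beside the share of all probes that passed on FAK5 arrays, 0.146%, at which 0 calls in lists of this size say nothing particular about them. Among 16 other Rac exchange factors and their partners tested, 0 passed, with a median of 0.07 and a range from -0.25 for Dock5 to 0.41 for Vav2. Among 17 Rac GTPases and effectors, such as Rac1 (-0.17) and Pak2 (-0.04), 0 passed, with a median of 0. The 9 other members of the Y complex ran from -0.35 for Nup98 to 0.19 for Sec13, the 15 other nucleoporins had a median of 0.02, and the 13 other centriole genes ran from -0.59 for Pcnt to 0.37 for Cdk5rap2. Over all 11406 genes the median was 0.01. At an unadjusted p under 0.05 the limma counts of these 5 lists on FAK5 arrays were 1, 0, 0, 1 and 2, 4 of 70 in all, against 11.4% of all probes. On FAK1 and FAK7 arrays 0 genes of these lists passed after adjustment either, with 4 and 4 under 0.05 before it.

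No other tested T-box gene had a difference as large as that of Tbx1, which was chosen on this contrast. The 7 others ran from -0.62 for Tbx15 to -0.04 for Mga, with 0 passing, where 0.146% of all probes passed. A list of 10 genes known from head muscle development, such as Myf5 (-0.24), Myod1 (-0.03) and Myog (0.52), had a median of 0 on FAK5 arrays. Of these, 0 passed, and at that share 0 calls in any list of this paragraph say nothing particular about it. Between labels this last group did differ: 9 of its 10 genes were higher and 1 lower on FAK5 than on FAK7 arrays, against 41.0% and 38.1% of all probes, with a median of 1.46, against 0.02 over all genes. Among 12 lysosomal glycosidases and relatives of Glb1l2, including Glb1 (-0.12) and Glb1l (0.31), 0 passed on FAK5 arrays, with a median of 0.12. Slow and fast fibre genes had medians of 0.20 and -0.04 there, with 0 of 10 and 0 of 12 passing. Their SE pools the spread of all groups, and muscle markers spread widely on FAK1 arrays. It ran from 0.19 (Atp2a2) to 1.2 (Myl2) for slow and from 0.28 (Myl1) to 1.09 (Atp2a1) for fast fibre genes. Fast fibre probes such as Myl1, with a FAK5 mean of 14.6, also lay near the top of the scale. For both fibre lists, 0 calls before or after adjustment therefore cannot tell whether these genes differed on FAK5 arrays. Outside these lists, probes of the muscle genes Ttn (0.69) and Mybpc1 (-1.21) were among the 31 that passed there, 0.146% of all probes. Before adjustment the limma counts under 0.05 on FAK5 arrays were 1 for the T-box genes, 1 for the head muscle genes, 1 for the glycosidases and 0 for both fibre lists, against 11.4% of all probes. On FAK1 arrays 10 of the 12 fast fibre genes passed, all higher in treated cells, as were 0.595% of all probes, with a list median of 4.50, while the 6 genes did not pass there.

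The genes whose levels followed each of the 6 most closely were found by Pearson correlation over the 18 arrays after centring each label, a measure that rests largely on the FAK5 difference and is given as a description. For Tiam1 they were Nup133 (0.896), Cntnap2, a neuronal adhesion protein (0.858), and Adal (0.851). For Nup133 they were Tiam1, Taf9 (0.826) and Cep89 (0.825), and for Cep295 Ankhd1 (0.903), Elob (0.889) and Gbf1 (0.876). Trim43b was followed by Itih5 (0.848), Cep295 (0.841) and Gbf1 (0.822). Tbx1 was nearest to Fhl1, a LIM protein of muscle (0.922), Syf2 (0.913) and Ccdc136 (0.891), and Glb1l2 to Ntrk3 (0.907), Atg9a (0.887) and Acadl (0.880). Without centring, where label differences enter, Tbx1 was nearest to Mybpc1, a myosin-binding protein of slow muscle (0.970), which differed by -1.21 on FAK5 arrays.

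Within the 6 FAK5 arrays Tiam1 and Nup133 correlated at 0.917 and Tbx1 and Glb1l2 at 0.926, while Tiam1 and Tbx1 correlated at -0.862, over arrays that share the contrast that chose them. Over all 18 arrays Tiam1 and Tbx1 correlated at 0.255. Cep295 and Trim43b, at 0.288 over all 18 arrays, correlated at 0.963 within the FAK5 arrays.

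**Figure D5:**
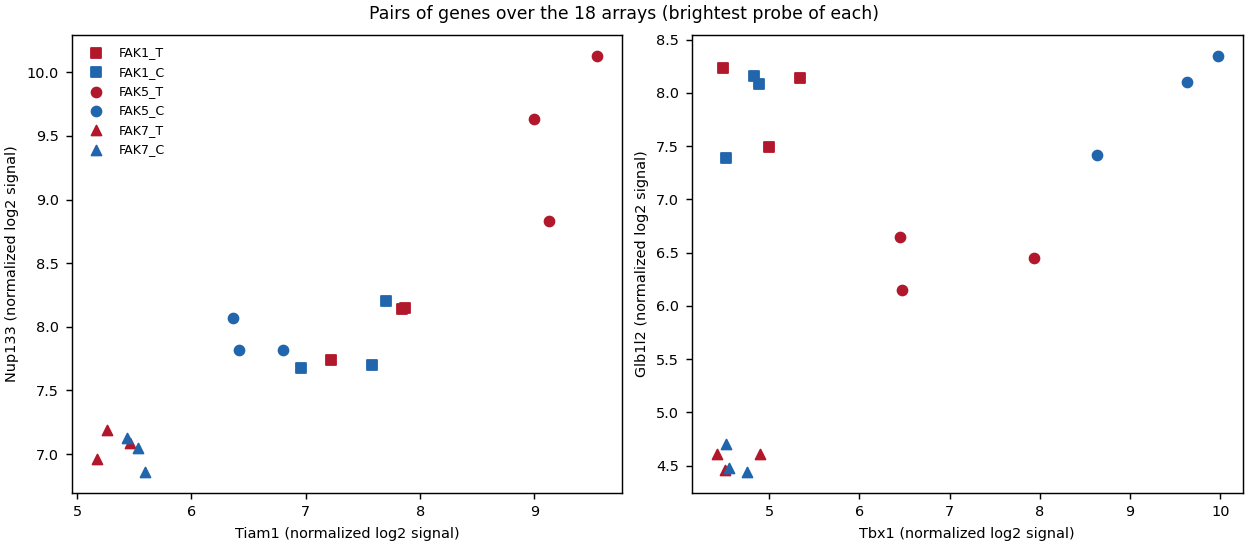
Normalized log2 signal of Nup133 against Tiam1 (left) and of Glb1l2 against Tbx1 (right) on the 18 arrays, with shapes for labels and red for treated, blue for untreated. FAK5 T arrays stand alone at the upper right for Tiam1 and Nup133, and lie below the FAK5 C arrays on both axes for Tbx1 and Glb1l2.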

How the data were processed

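RNA of 18 samples was hybridized to Illumina mouse bead arrays, 1 array per sample. The deposited non-normalized table holds a linear intensity and, per the file headers, a detection p-value for each of 45281 probes and array. Per array, 23.2% to 30.9% of these values are negative, which shows that a background was taken off earlier. No source used here names the software or chip. Normalized intensity values from the authors, in the series matrix, served as an alternative. The share of probes detected per array was 38.2% to 44.2%, and the number of arrays limits the precision.

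Intensities were background corrected, quantile normalized and taken to log2 with neqc (offset 16) in limma 3.58.1 (R 4.3.3). One mean per group was fitted over all 18 arrays with limma, with an intensity trend in the variance and Benjamini-Hochberg adjustment over the 21193 probes that passed the filter, with a threshold of 0.05. All tests were two-sided, and no replicate block was used. Probes were named through the platform annotation, where 34885 have 1 symbol. The scripts were tested on simulated data. The genes and gene lists were chosen with earlier results of these data known. The named genes are the 6, their 3 closest by correlation, their neighbours within 1 Mb and the gene lists. Sequences are from RefSeq, GRCm38.p6, with windows used for 4 of the 6 genes. Alternatives changed the background correction, values, filter, probe choice, variance model, arrays and replicate block.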

Additional observations from a re-analysis of the deposited data

How the results depend on the processing

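The sign of the FAK5 difference held for all 8 probes in 113 of 113 alternative values, of which 7 moved by more than the spread between replicates. This was largely fixed by the choice of genes. Their FAK5 groups do not overlap, so leaving out arrays could not turn the sign. Changes of filter, probe choice, variance model or block left the difference as it was. Without background correction Tiam1 was at 2.31, ILMN_2719266 at 0.77, Cep295 at 0.78 and Trim43b at 0.67, and without the Eif2s3y arrays ILMN_2719266 was at 0.96, Cep295 at 1.32 and Glb1l2 at -1.94. That last setting left 1 untreated array under label 1 and 1 under label 5. On FAK1 and FAK7 arrays none of the 8 probes passed in any alternative that kept more than 1 array per group (lowest limma adjusted p = 0.354 and 0.26). Differences that turned sign were all uncalled. Without the untreated arrays with Eif2s3y, the FAK1 difference was -0.06 for Tiam1, and -0.19, -0.18 and 0.14 for the Nup133 probes ILMN_2654013, ILMN_2981689 and ILMN_2719266, the last of which was at -0.05 for FAK1 minus FAK7. Leaving out 1 array at a time on FAK1 gave -0.35 to 0.02 for ILMN_2719266, -0.1 to 0.29 for Trim43b, 0 to 0.42 for Tbx1, -0.17 to 0.31 for Glb1l2, 0.06 to 0.32 for ILMN_2654013, 0.02 to 0.44 for ILMN_2981689 and 0 to 0.44 for Tiam1. On FAK7 it gave -0.02 to 0.12 for ILMN_2654013, -0.15 to 0.09 for Tbx1 and -0.03 to 0.1 for Glb1l2. It gave -0.11 to 0 for Cep295 in FAK5 minus FAK1 and -0.01 to 0.17 for ILMN_2719266 in FAK1 minus FAK7. Tiam1 passed in FAK5 minus FAK1 without background correction (0.37) and without FAK1 T replicate 1 (0.40) or 2 (0.41), FAK1 C replicate 2 (0.42) or FAK5 T replicate 1 (0.41). Cep295 no longer passed in FAK1 minus FAK7 with no filter, with the block (both -0.29), without the Eif2s3y arrays (-0.18) and without FAK1 T replicate 1 (-0.24), FAK1 C replicate 3 (-0.22), FAK7 T replicate 1 (-0.26) or 2 (-0.28), or FAK7 C replicate 1 (-0.26) or 2 (-0.28).

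Counts of probes called with U73122 moved far more. On FAK1 arrays the count was 142, against 11 with the filter at a detection p under 0.01, 90 with a robust variance, 999 without the untreated arrays with Eif2s3y and 1 with only the arrays of that label. Leaving out 1 array gave 28 (FAK1 T replicate 1) to 356 (FAK1 T replicate 3), with 38 (T replicate 2), 266 (C replicate 2) and 37 (C replicate 3). On FAK5 arrays it was 31, against 14 without background correction, 14 with the authors' values, 20 without a filter, 7 with the stricter filter, 8 with 1 probe per gene, 1589 without the Eif2s3y arrays and 1 with only that label. Leaving out 1 array gave 16 (FAK5 C replicate 2) to 209 (FAK5 C replicate 1), with 57 for T replicate 3. On FAK7 arrays it was 139, against 66 with the authors' values, 22 with the stricter filter, 65 with 1 probe per gene and 27 with only that label. Leaving out 1 array gave 50 (FAK7 C replicate 2 or 3) to 308 (FAK7 T replicate 3), with 60 (T replicate 1) and 76 (C replicate 1). Label differences were called for 12408 probes (FAK5 minus FAK1), 16756 (FAK5 minus FAK7) and 15819 (FAK1 minus FAK7). The stricter filter left 6896, 8012 and 7732 and 1 probe per gene 6928, 9178 and 8631, with fewer probes tested. Other causes were not tested.

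Arrays with the same replicate number correlated at -0.02 to 0.26 after removal of group means, over 0.1 in 6 of 9 pairs, and 7 of 9 treated arrays correlated best with their own number, a hint of pairing from the data. Under labels 1 and 5, however, replicates 1 and 3 carried Xist when treated and Eif2s3y when untreated, so these same-numbered arrays differ in sex chromosome transcripts. What the correlation reflects was not tested. The labels give no pairing and 3 pairs fall short, so the block was kept as an alternative. With the replicate number as a block, 265 probes were called on FAK1 arrays and 19 on FAK5 arrays.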
